A study of Homo sapiens with 16 samples.

Results

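This section describes the response of untreated LN229 cells to ischemic culture beyond 3 written gene lists. They cover hypoxia and glycolysis, ATF4 and the unfolded protein response, and inflammatory cytokines. Only genes on these lists were set aside, so other targets of hypoxia or ATF4 may be among the genes below. GAPDH, a glycolytic enzyme, was not on them and is named below. Which of the named genes are such targets was not tested. LN229 is an established cell line from a human glioblastoma. The 4 libraries of the experiment without vehicle or inhibitor were used, 2 from ischemic and 2 from regular culture, out of 16 libraries in the series. Ischemic culture combined about 1% oxygen with a poor medium (glucose at 2 mM, glutamine at 0.1 mM, serum at 1%), and regular culture was complete medium with 10% serum. Neither group carried a transgene or received a vehicle. The other 12 libraries came from a second experiment, in which cells in the same 2 cultures received DMSO or an inhibitor of p38α (VX745) or MK2 (MK25). The length of time in ischemic culture is not given in the sources used here. Oxygen, glucose, glutamine and serum were all changed at once, so their parts in any difference cannot be told apart.

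The deposited values are log2 normalized CPM (reads of a gene per library scaled to a common size), listed for 13559 genes. All 13559 genes entered the test. Undoing the logarithm returned whole reads, which gave 22346073 to 28373993 reads per library on the listed genes. Nothing in the labels says whether the 2 libraries of a group came from separate cultures, so p-values measure only the spread between these libraries, which may be technical. Of 9 glioma and neural markers 8 were listed, CHI3L1 not among them, with a summed level of 8317 and 8165 CPM in the ischemic and 4582 and 4527 CPM in the regular libraries. VIM held most of each sum and had a log2 fold change of 1.38, while the markers NES and SOX2 had -1.37 and -3.11. The sums therefore do not show a rise of these markers as a set. Of 17 markers of immune, endothelial, epithelial, neuronal and oligodendrocyte cells, 4 were listed, CD68, SYT1 and SNAP25 among them. These 4 summed to 135 and 149 CPM under ischemia and to 93.2 and 95.8 CPM in regular culture, and PTPRC, PECAM1 and EPCAM were not listed. In such bulk RNA, fewer cells of a kind and less RNA per cell cannot be told apart.

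A cell short of oxygen, fuel and serum factors has to spend less on growth. Dividing cells copy their DNA in S phase, build ribosomes and fold new proteins, and these are the costly activities that nutrient and growth factor signals control. Other programmes, such as autophagy, recover material from within the cell. The gene lists below follow these activities in turn, and then cover the surface, the signalling pathways and the chromatin enzymes.

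A gene was called upregulated or downregulated when limma's adjusted p (Benjamini-Hochberg, over all genes) was under 0.05 and the fold change was at least 2. By this rule 1529 genes were upregulated (11.3%) and 1234 were downregulated (9.1%). With no minimum fold change, each direction held 35.2% of the genes, 4772 higher and 4768 lower. The counts of each gene list below are to be read against these shares. Together these are 2763 called genes, 20.4% of all genes. The libraries of the 2 cultures overlapped for 0 of them. With 2 libraries a group the calling rule all but requires this, so it adds no evidence. Large rises outnumbered large falls: 434 genes rose past 4-fold and 75 past 16-fold, against 195 and 10 that fell as far. The median of all genes lay at -0.01 on the log2 scale. When the recovered reads were scaled to their library totals alone (voom), this median moved by -0.17 and the split changed to 1232 up and 1784 down. Values below keep the deposited scaling, under which voom called 1560 up and 1256 down.

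**Figure D1:**
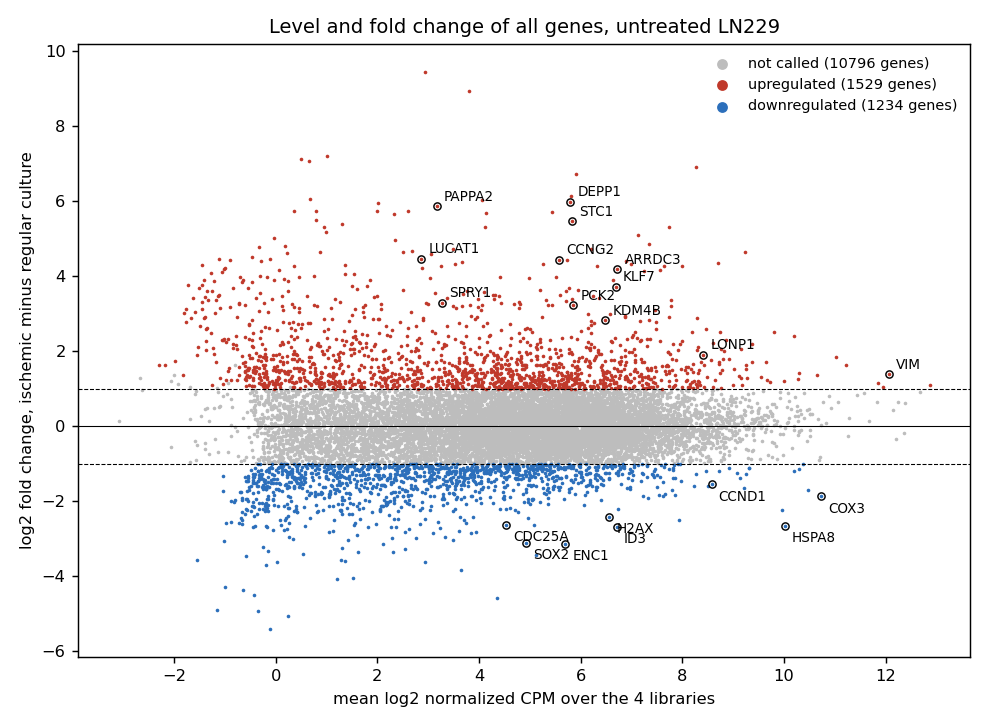
Mean log2 normalized CPM over the 4 libraries (x axis) and the log2 fold change of ischemic over regular culture (y axis) for 13559 genes, with dashed lines at a 2-fold change. The 1529 upregulated genes reach further from 0 than the 1234 downregulated genes, and HSPA8 and COX3 are among the well expressed genes that fell.

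The 15 largest rises outside the hypoxia, ATF4 and cytokine lists were taken among genes whose mean level was 3 or more in log2, and in each the libraries of the cultures did not overlap. Less expressed genes such as UNC5B and INHBE, described below, had larger fitted rises than most of them. DEPP1, a FOXO target that takes part in autophagy, read 8.63 and 8.95 log2 CPM in ischemic and 2.78 and 2.81 in regular culture. This was a rise of 5.99 in log2 (SE 0.10, limma adjusted p = 2.44e-13). STC1, a secreted glycoprotein hormone, read 8.56 and 8.57 against 3.14 and 3.06. Both genes were low in regular culture and well expressed in ischemic culture. CCNG2, an atypical cyclin associated with cell cycle arrest, read 7.72 and 7.86 against 3.39 and 3.30, a rise of 4.44 in log2 (SE 0.08, adjusted p = 7.65e-13). ARG2, the mitochondrial arginase, read 8.43 and 8.47 against 4.17 and 4.19, a 19.3-fold rise. ARRDC3, an alpha-arrestin that directs receptors to degradation, read 8.73 and 8.91 against 4.58 and 4.68, an 18.3-fold rise.

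The same 15 largest rises held other secreted and signalling proteins. PAPPA2, a protease that cleaves insulin-like growth factor binding proteins, rose by 5.87 on the log2 scale from 0.02 and 0.45 to 6.14 and 6.06. INHA, the inhibin alpha subunit, rose by 4.26, and PTPRH, a receptor-type tyrosine phosphatase, rose by 3.99. PPP1R3C, which brings protein phosphatase 1 to glycogen, rose by 4.39, with 5.48 and 6.23 in the ischemic libraries, which stood further apart than the regular libraries around a mean of 1.47. HOXB9, a homeobox transcription factor, read 6.97 in both ischemic libraries against 3.06 and 2.95 in regular culture. SH3BGR, TCAF2, AKNA and LINC01239 rose by 4.60, 4.32, 3.98 and 3.95. FKBP9P1 had the largest fitted rise of the group, 6.03, but it is a transcribed pseudogene of FKBP9, whose own log2 fold change was 2.53. Reads of such near-identical copies cannot be assigned with certainty.

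The 15 largest falls, chosen in the same way, were smaller in size. They were led by TXNIP, ADAMTS15 and LZTS1, with log2 fold changes of -4.58, -3.84 and -3.43. ENC1, an actin-binding Kelch protein, read 4.08 and 4.17 in ischemic against 7.18 and 7.33 in regular culture, an 8.75-fold fall (log2 standard error 0.08, adjusted p = 1.36e-11). SOX2, a transcription factor of neural stem cells, read 3.13 and 3.59 against 6.48 and 6.47, an 8.65-fold fall (log2 standard error 0.13, adjusted p = 6.85e-10). ID3, which blocks the DNA binding of bHLH factors, read 5.11 and 5.63 against 8.08 and 8.03. The ischemic libraries of SOX2 and ID3 stood further apart than the regular libraries, and both stayed below them. SOCS3, a feedback inhibitor of cytokine receptors, fell by 2.82 on the log2 scale, TNFRSF21 (death receptor 6) fell by 2.84 and the bHLH factor ATOH8 fell by 2.79. FAM222A, INAVA, LINC00707 and TUB fell by 3.04, 2.96, 2.83 and 2.70.

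**Figure D2:**
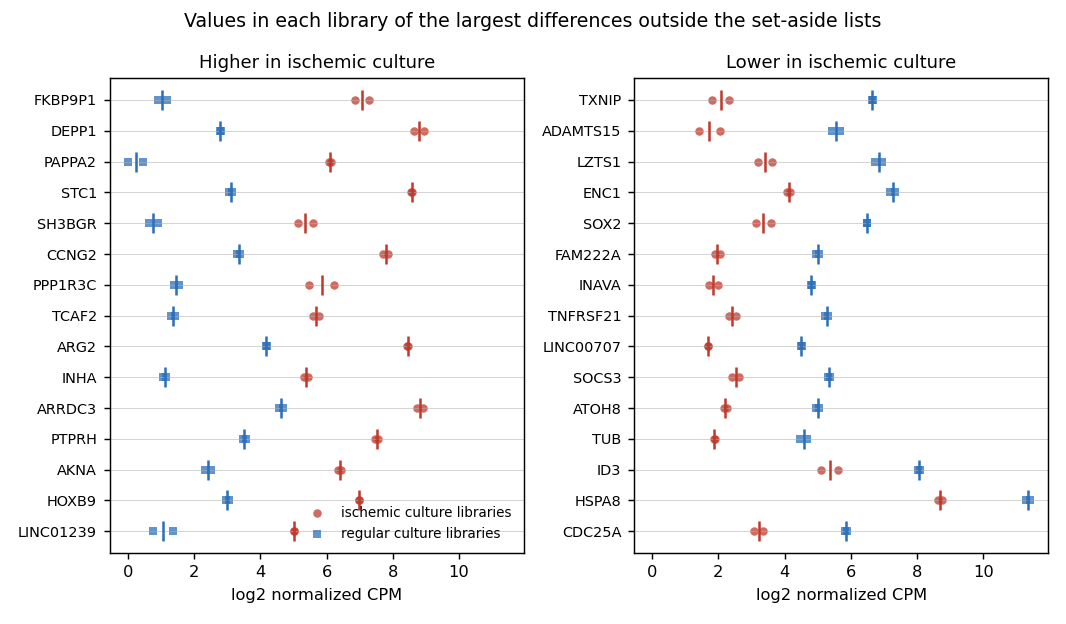
Log2 normalized CPM (x axis) in each ischemic library (circles) and each regular library (squares) for the 15 largest rises and 15 largest falls outside the set-aside lists, with a vertical tick at each group mean. The libraries of the cultures are separate for all 30 genes, as the naming rule required; DEPP1 reached 8.95 in ischemic culture from 2.81 or lower, and ENC1 fell to 4.17 or lower from 7.18 or higher.

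The most abundant called genes included cytoskeletal genes that rose, and a chaperone and mitochondrially encoded mRNAs that fell. VIM, the intermediate filament protein vimentin, read 12.77 and 12.73 against 11.40 and 11.34, a 2.60-fold rise. PLEC and AHNAK, both very large scaffold proteins, rose 2.60-fold and 2.65-fold. THBS1, the matrix protein thrombospondin 1, read 9.53 and 9.68 against 10.76 and 10.85, while its relative THBS2 rose by 1.64. HSP90AA1, the inducible cytosolic HSP90, read 9.61 and 9.66 against 11.40 and 11.25, and TUBA1B, an alpha-tubulin, fell by 1.15. GAPDH and ACTG1, which are often used as references, rose 2.13-fold and 2.08-fold, but with VIM both were under 2-fold after quantile normalization, and GAPDH and ACTG1 also when the reads were scaled to library totals. ACTG1 lay at 0.88 in log2 without ischemic replicate 2.

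Genes that start and carry out DNA replication were called in 1 direction, down, though most members were under 2-fold. The list of origin licensing and firing, the steps that load and activate the MCM helicase, held 28 genes, of which 6 were downregulated, 0 were upregulated and the median was -0.67. The list of replication fork proteins and nucleotide synthesis held 36, with 8 downregulated, 0 upregulated and a median of -0.49. PCNA, the sliding clamp of the fork, read 6.22 and 6.09 against 7.85 and 7.68, a 3.05-fold fall (log2 standard error 0.08, adjusted p = 3.26e-09). CLSPN, a mediator of the replication checkpoint, read 4.60 and 4.78 against 6.67 and 6.61. GINS2 and MCM6, both parts of the replicative helicase, fell by 1.54 and 1.45. UHRF1, which maintains DNA methylation behind the fork, fell by 1.96, as did DCTPP1, which removes abnormal nucleotides. Not every member followed: RRM2, a subunit of ribonucleotide reductase, had a log2 fold change of 0.31 and was not called.

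The genes that act before and after S phase split. Among 28 listed G1 cyclins, CDK inhibitors and RB-E2F genes, 7 were downregulated and 5 upregulated. The cyclins E, partners of CDK2 at the entry to S phase, both fell: CCNE1 read 1.58 and 1.80 against 4.25 and 4.10, a 5.59-fold fall, and CCNE2 fell 3.70-fold. CCND1, cyclin D1, read 7.97 and 7.64 against 9.35 and 9.35, a 2.92-fold fall, and the activator E2F2 fell 4.65-fold. On the other side, CCNG2 (above) and E2F7, an E2F repressor, rose, the latter by 1.74 on the log2 scale. The CDK inhibitor CDKN1B rose by 1.10, which was under 2-fold when the reads were scaled to library totals, and the antiproliferative BTG1 rose by 1.57. CDC25A, the phosphatase that activates CDKs, fell 6.19-fold from 5.87 and 5.82 to 3.34 and 3.09, and WEE1, the kinase that opposes it, rose 2.65-fold. These were the only genes called among 35 mitotic kinases, cyclins and anaphase-promoting complex genes. The kinetochore and spindle list, the machinery of mitosis itself, had 0 of 48 members called in either direction and a median of -0.09. With no minimum fold change, 12 of the 48 were higher and 21 lower. Of 47 replication-dependent histone genes, whose mRNAs mostly lack a poly(A) tail, 9 were listed, 7 of these were downregulated and the median was -1.61. With DMSO 1 of the 9 was downregulated and the median was -0.46. These mRNAs were at few reads, for example H2BC11 at 7 and 8 reads in ischemic against 37 and 56 in regular culture. H2AX, the histone variant phosphorylated at DNA breaks, was better measured and fell by 2.42, from 7.84 and 7.68 to 5.56 and 5.14.

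Cells need ribosomes in proportion to growth, and several genes that assemble them fell while 1 cytosolic ribosomal protein gene was called. Among 59 ribosome biogenesis genes, 10 were downregulated, 0 were upregulated, 43 were lower with no minimum fold change, and the median was -0.52. NOP56, a core protein of the C/D box particles that guide rRNA methylation, read 6.69 and 6.59 against 8.49 and 8.43, a 3.53-fold fall (log2 standard error 0.07, adjusted p = 3.2e-10). RRS1, needed for the large subunit, fell 3.46-fold. Of 77 cytosolic ribosomal protein genes, 1 was called, RPS26, which read 3.68 and 4.07 against 5.91 and 5.85. RPS26 has pseudogene copies that can share its reads. The list's median of 0.13 became -0.07 after quantile normalization. Of 73 mitochondrial ribosomal protein genes 10 were downregulated (13.7%, against 9.1% of all genes) and 0 upregulated. At any size 56 were lower, against 35.2% of all genes, and the median was -0.49. With DMSO 2 were downregulated. MRPL12, of the large mitochondrial subunit, fell by 1.38.

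The lists of RNA polymerases, translation factors and splicing factors held smaller upregulated shares than the 11.3% of all genes. Of 33 listed genes of RNA polymerases I and III, 4 were downregulated (12.1%, against 9.1% of all genes). Among them were the subunits POLR3K (log2 fold change -1.85) and POLR1G (-1.61). RRN3, a factor that recruits polymerase I, was called at 1.90 (standard error 0.44), but its regular libraries read 1.13 and -0.78 and its fold change with DMSO was -0.34. Without regular replicate 2 it was at 0.95 and was not called. Of 50 translation factors 3 were upregulated (6%) and 5 downregulated (10%). EIF1, which monitors start codon choice, rose by 1.32, from 8.90 and 8.87 to 10.20 in both ischemic libraries, and EIF5A, an elongation factor, fell by 1.28. EIF4EBP2, a repressor of cap-dependent translation, fell by 1.37. CLK1, a kinase that activates SR splicing proteins, rose 5.12-fold, at 7.56 and 8.14 against 5.57 and 5.42, while HNRNPAB, an mRNA-binding protein, fell 3.48-fold. Among 45 genes of the spliceosome core 1 was called, yet 29 were lower at any size and the median was -0.50. XPOT, the exportin of tRNA, rose by 1.71, and RCC1 and RANBP1, which run the Ran cycle of nuclear transport, fell by 1.28 and 1.36.

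Of 37 listed cytosolic chaperones, TRiC and prefoldin subunits, 10 were downregulated, 0 were upregulated and the median was -0.48. With DMSO 5 were downregulated and 1 was upregulated. HSPA8, the constitutive HSP70, read 8.63 and 8.74 against 11.40 and 11.29, and HSPH1, its nucleotide exchange factor, read 5.63 and 5.64 against 7.85 and 7.83. DNAJA1, an HSP40 partner, fell 3.65-fold. These fell with DMSO too, where the log2 fold changes were -2.02 for HSPA8, -1.69 for HSPH1 and -1.71 for DNAJA1. HSPB1, a small heat shock protein, fell by 1.49 here and had -0.34 with DMSO. DNAJB1, another HSP40, lay at -0.38 here, whereas it was upregulated with DMSO at 1.41. The difference between the experiments was not tested. In the mitochondria, the co-chaperonin HSPE1 fell 3.74-fold, while LONP1, the protease of the matrix, rose 3.75-fold, at 9.34 and 9.38 against 7.45 and 7.46.

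Of 44 proteasome genes 5 were downregulated (11.4%, against 9.1% of all genes) and 0 were upregulated, 34 were lower at any size and the median was -0.55. With DMSO 0 of the 44 were called in either direction and the median was -0.39. PSME3, a proteasome activator subunit, fell by 1.29 and PSMD2, of the regulatory particle, fell by 1.19. Of 43 autophagy genes 8 were upregulated and 1 was downregulated, with a median of 0.38. Besides DEPP1, WIPI1, which binds the lipid of early autophagosomes, read 6.05 and 5.83 against 3.71 and 3.61, a 4.84-fold rise (log2 standard error 0.10, adjusted p = 1.15e-09). MAP1LC3B, the LC3 protein that coats autophagosomes, read 7.71 and 7.49 against 5.64 and 5.56, and OPTN, a cargo receptor, rose 4.14-fold. PIK3R4, a subunit of the lipid kinase that starts autophagosomes, was the downregulated member, at -1.06, and was under 2-fold without regular replicate 2. The lysosome list, where the cargo ends, had 1 of 51 members up and 1 down.

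**Figure D3:**
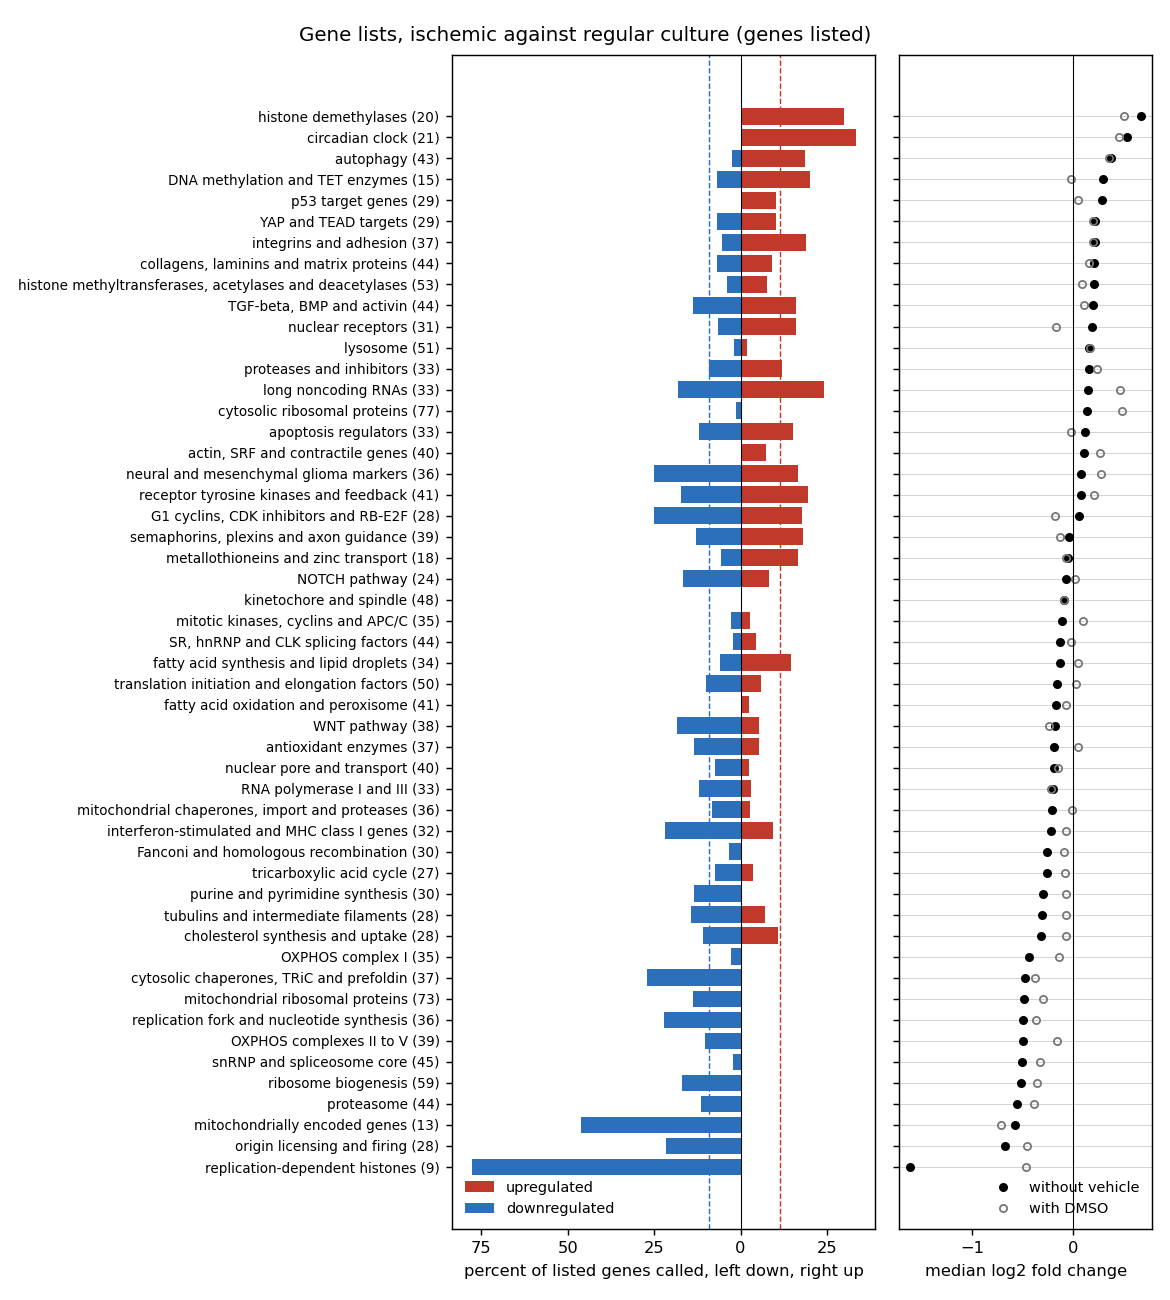
Percent of the listed genes of each gene list called upregulated (red, right) or downregulated (blue, left), and the median log2 fold change without vehicle (filled) and with DMSO (open), for 51 lists, with the number of listed genes in parentheses. Dashed lines mark the shares over all genes, 11.3% up and 9.1% down; histone demethylases and circadian clock genes stand at the top by median and replication-dependent histones at the bottom.

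Most nuclear genes for respiration were lower by less than 2-fold. Of 35 nuclear genes of complex I, 1 was downregulated, yet 30 were lower at any size and the median was -0.44. Of 39 nuclear genes of complexes II to V, 4 were downregulated, 32 were lower at any size and the median was -0.50. ATP5MC1, which encodes the membrane ring of ATP synthase, read 4.55 and 4.67 against 6.27 and 6.30, a 3.20-fold fall, and NDUFS6, of complex I, fell 2.36-fold. With DMSO the medians of both lists were nearer to 0, at -0.14 and -0.15.

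The mitochondrial genome carries 13 protein-coding genes, all of which were listed, and they did not move as one. On the heavy strand transcript, ND1, ND2, ATP8, ATP6, COX3 and ND3 were downregulated, and COX1, COX2, ND4L, ND4 and CYTB were not called. ATP6, a subunit of ATP synthase, read 8.91 and 8.77 against 11.02 and 11.14, a log2 difference of -2.24 (SE 0.08, adjusted p = 1.7e-10). COX2, a subunit of cytochrome c oxidase encoded nearby, read 11.71 and 11.77 against 11.58 and 11.63, a log2 difference of 0.14 (SE 0.08, adjusted p = 0.141) that was -0.48 after quantile normalization. Neighbouring genes of one transcript thus had log2 fold changes from -2.49 for ATP8 to 0.43 for ND4, the latter at -0.11 after quantile normalization. ND5 and ND6 lay at -0.57 and -0.44. The rRNAs RNR1 and RNR2 were higher, by 0.38 and 0.84, and were not called. With DMSO, ND1 had -1.89, ATP8 -1.01, ATP6 -0.94, COX3 -0.71 and ND2 -0.18, and ND6 was called at -1.04. ND3 and ND5 had -0.72 and -0.87 there, and COX1 had 0.02. CYTB, ND4, ND4L and COX2 were higher with DMSO, at 0.93, 0.89, 0.71 and 0.62, and were not called. ND2 fell under 2-fold without ischemic replicate 2 and without regular replicate 2.

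Mitochondrial tRNA genes had far fewer reads and larger differences. Of 11 that were listed, 9 were downregulated, TRNC was upregulated with a log2 fold change of 1.46 and TRNP was not called at 0.67. In 6 of the 9 both ischemic libraries held 3 reads or fewer, so their falls are lower bounds set against 3 reads per library. TRNH was at least 29.8-fold lower, TRNE at least 14.8-fold, TRNV at least 12.1-fold, TRNG at least 10.9-fold and TRNR at least 5.68-fold, and TRNS2 was the other. TRNL1 read -0.45 and 0.34 against 3.27 and 3.31. With DMSO 8 of the 10 listed tRNA genes were also downregulated. Mature tRNAs are too short to be captured whole by an mRNA library, so these reads stand for longer or partly processed RNA, and some genes overlap their neighbours.

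**Figure D4:**
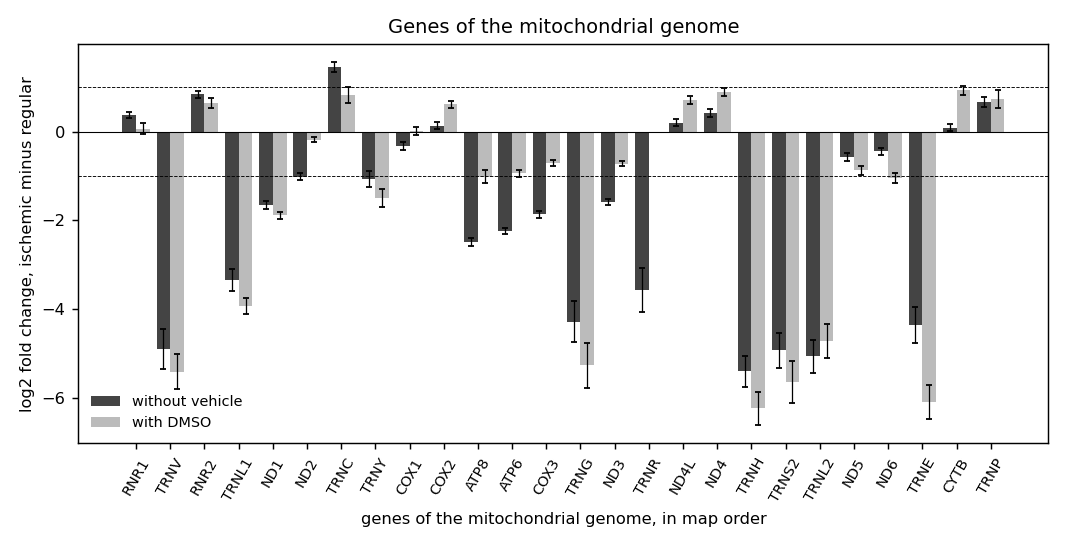
Log2 fold change of ischemic over regular culture (y axis), with its standard error, for the 26 listed genes of the mitochondrial genome in map order (x axis), without vehicle (dark) and with DMSO (light; TRNR was not listed there). ATP8, ATP6 and COX3 fell past 2-fold while ND4 lay at 0.43; the tRNA bars are fitted values, of which 6 rest on ischemic libraries with 3 reads or fewer.

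Central metabolism outside glycolysis changed at single steps. PCK2, the mitochondrial enzyme that makes phosphoenolpyruvate, read 7.46 in both ischemic libraries against 4.33 and 4.15, a 9.32-fold rise (log2 standard error 0.08, adjusted p = 1e-11). It was the 1 upregulated gene among 27 of the tricarboxylic acid cycle and its feeder enzymes, where IDH3A and FH, enzymes of the cycle, fell by 1.36 and 1.10. Of 30 genes of purine and pyrimidine synthesis 4 were downregulated (13.3%, against 9.1% of all genes) and 0 were upregulated. CTPS1, which makes CTP, fell by 1.62. Among 37 antioxidant enzymes 2 were upregulated and 5 downregulated. GLRX, a glutaredoxin that restores oxidized thiols, read 5.77 and 5.57 against 2.40 and 2.17, a 10.4-fold rise, and the peroxiredoxins PRDX1 and PRDX3, which remove peroxide, fell by 1.70 and 1.11. The metallothioneins MT1X and MT1E, which bind zinc and copper, rose by 2.16 and 2.04; reads of this family are shared between near-identical copies.

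Cholesterol genes were called in both directions. INSIG1, which holds the sterol sensor SCAP in the endoplasmic reticulum, read 6.22 and 7.17 against 3.76 and 3.83, a 7.46-fold rise (log2 standard error 0.21, adjusted p = 1.18e-07), with the ischemic libraries nearly 1 log2 unit apart. The exporters ABCG1 and ABCA1 rose by 2.60 and 1.07 on the log2 scale, the latter to under 2-fold when the reads were scaled to library totals. Of the 28 listed cholesterol genes 3 were up and 3 down, 10.7% each and near the shares of all genes. The median was -0.31. In fatty acid synthesis, FASN, the synthase, fell by 1.24, and ME1, which supplies it with NADPH, rose by 1.98.

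The surface and the cytoskeleton changed gene by gene. MAP1B, a microtubule-associated protein, rose by 1.42. Of 37 integrins and adhesion genes 7 were upregulated and 2 downregulated. ICAM1, a ligand of leukocyte integrins, read 7.80 and 7.98 against 5.85 and 5.84, ITGA5, a subunit of the fibronectin receptor, rose by 1.49 and the adhesion molecule L1CAM rose by 1.71. CDH11, a cadherin, fell by 1.26. F3, the tissue factor that starts coagulation, rose by 3.10, from 2.58 and 2.39 to 5.55 and 5.64, and CCN1, a matrix-associated signalling protein, rose by 1.47. Both are on the list of YAP and TEAD targets, of which 3 of 29 were upregulated and 2 downregulated, FJX1 and TEAD2, the latter at -0.97 and not called without regular replicate 1.

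Markers of glioma cell state went both ways. Of 36 listed neural and mesenchymal genes 6 were upregulated and 9 downregulated, and the median of 0.08 became -0.13 after quantile normalization. Besides SOX2, the neural transcription factor POU3F2 fell 4.75-fold, at 2.32 and 2.40 against 4.62 and 4.60, and NES, the intermediate filament nestin, fell 2.58-fold. SNAI1, a repressor of epithelial genes, fell 4.61-fold, at 3.49 and 3.37 against 5.56 and 5.71. FOSL2, an AP-1 factor, rose 5.70-fold, at 8.25 and 8.39 against 5.78 and 5.84, and BCAN, a brain proteoglycan, rose 6.41-fold. OLIG1 and SOX9 rested on few reads, OLIG1 on 12 and 2 in the ischemic libraries against 40 and 57, and SOX9 on 26 and 18 against 2 and 3. Of the markers of other cell types, SYT1, a synaptic calcium sensor, rose by 2.58, and CD68 and SNAP25 were not called at 0.77 and -0.47. Whether these differences trace to other cells was not tested.

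The activin and BMP pathways, both of the TGF-beta family, held calls in both directions. The members named below were picked among the called genes and do not give a direction for either pathway. Of 44 listed genes 7 were upregulated (15.9%) and 6 downregulated (13.6%), not far from the 11.3% and 9.1% of all genes. INHBE, an activin subunit, read 4.92 and 4.81 against -1.04 and -0.70, which is 836 and 592 reads against 10 and 15. INHBA, the subunit of activin A, read 6.74 and 7.25 against 5.12 and 5.29, a 3.46-fold rise, and FST, the secreted antagonist follistatin, rose 5.09-fold. NOG, which blocks BMPs, rose from 17 and 15 reads to 107 and 61. The ligand BMP4 fell 3.21-fold, and TGFBR3, a co-receptor of the family, fell 4.14-fold. Targets of BMP receptors also fell: ID1 read 5.06 and 4.99 against 7.19 and 7.04, a 4.26-fold fall (log2 standard error 0.08, adjusted p = 3.34e-10), and the inhibitory SMAD6 fell 4.87-fold. SMAD7, the other inhibitory SMAD, was not called at -0.25.

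Of 38 listed WNT genes 2 were upregulated and 7 downregulated, with a median of -0.18, and with DMSO 0 and 4 were called. The ligand WNT5B fell by 2.03 and the transcription factor TCF7 fell by 1.78, at 2.62 and 2.43 against 4.21 and 4.39. RNF43, which removes WNT receptors from the surface and is itself a target, fell by 1.90. Of 24 listed NOTCH genes 2 were upregulated (8.33%) and 4 downregulated (16.7%), against 11.3% and 9.1% of all genes. At any size 7 were higher and 7 lower. With DMSO 0 were upregulated and 1 downregulated. LFNG, which glycosylates the receptor, fell by 2.32, while RBPJ, the DNA-binding factor of the pathway, rose by 1.45. HES1, its classical target, was not called at -0.14.

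Receptors, guidance molecules and their feedback genes were called in both directions. Of 41 receptor tyrosine kinase genes and their regulators 8 were upregulated and 7 downregulated. DDR2, a collagen receptor, read 8.51 and 8.53 against 6.13 and 6.27, a 4.98-fold rise, and SPRY1, an inhibitor of RAS signalling, rose 9.77-fold. EPHB3, an ephrin receptor, fell 3.87-fold. Among 39 guidance genes 7 were upregulated (17.95%) and 5 downregulated (12.82%), against 11.3% and 9.1% of all genes. EFNA3, an ephrin ligand, rose by 3.58 on the log2 scale, at 5.77 and 5.99 against 2.26 and 2.33. UNC5B, a netrin receptor, went from 0 and 4 reads in regular to 568 and 338 in ischemic culture, so its fitted log2 fold change of 7.07 depends on the offset in the deposited values. SEMA4B, a semaphorin, rose by 2.04 and SEMA6A fell by 1.67. Interferon-stimulated and MHC class I genes were called down 7 times and up 3 times of 32. IFIT1 and OASL, both antiviral proteins, fell to 10 and 13 reads from 67 and 61, and to 6 and 8 from 43 and 42. ISG20, a nuclease, rose by 2.09.

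The circadian clock list had 7 of 21 genes upregulated (33.3%) and 0 downregulated, with a median of 0.53. CIART, a repressor of the CLOCK and BMAL1 activators, read 5.85 and 6.15 against 2.53 and 2.67, a rise of 3.40 in log2 (SE 0.12, adjusted p = 1.51e-10). NFIL3, a repressor of clock output genes, read 6.02 and 6.59 against 3.04 and 3.06, and BHLHE41, another repressor, rose 6.67-fold. PER1 and PER2, core repressors of the loop, rose by 1.95 and 1.63, and NR1D1 and RORA, nuclear receptors that act on the BMAL1 gene in opposite ways, rose by 2.08 and 3.47. CRY1, the partner of the PER proteins, was not called at -0.19, and neither was DBP, an output gene, at 0.38. With DMSO the list also had 7 of 21 upregulated and 0 downregulated. A single time point cannot tell a changed level from a changed phase.

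Histone demethylases remove methyl groups from histone tails in reactions that need oxygen. Of 20 listed genes outside the hypoxia list 6 were upregulated (30%), 0 were downregulated and the median was 0.67. KDM8, which is not on the list and was added after its values were seen, was downregulated at -1.19 and had -0.65 with DMSO. KDM4B read 7.85 and 7.94 against 5.02 and 5.12, a 7.11-fold rise (log2 standard error 0.07, adjusted p = 1.29e-11). KDM7A read 6.26 and 6.27 against 3.51 and 3.76, a 6.20-fold rise. KDM5B, KDM6B and KDM4C rose by 2.16, 2.09 and 2.07. Of 53 histone methyltransferases, acetylases and deacetylases 4 were upregulated and 2 downregulated, with a median of 0.20. TET1, which oxidizes methylated cytosine and also depends on oxygen, rose 5.29-fold, at 4.26 and 4.92 against 2.13 and 2.25.

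Of 33 regulators of apoptosis 5 were upregulated (15.2%) and 4 downregulated (12.1%), near the 11.3% and 9.1% of all genes. BBC3, the proapoptotic PUMA, rose 5.14-fold, at 4.26 and 3.75 against 1.71 and 1.57, and TNFRSF10B, the death receptor DR5, rose 2.87-fold. BIRC3, an inhibitor of apoptosis, rose 4.16-fold. The proapoptotic BID and BCL2L11 (BIM) fell 2.79-fold and 2.73-fold. Of 29 p53 target genes 3 were upregulated, BBC3 and TNFRSF10B among them, and CDKN1A, the best known target, was not called at 0.91, and was called at 1.05 without ischemic replicate 2. With DMSO it was upregulated at 1.49 (limma, adjusted p = 1.63e-13), and 6 of the 29 were upregulated and 1 downregulated.

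Without regard to level, lncRNAs were called more often than coding genes. Of 761 listed lncRNAs 125 (16.4%) were upregulated and 150 (19.7%) downregulated, against 10.8% and 8.27% of 12339 protein-coding genes. Calls also vary with level. Of coding genes with 4 to 6 exons, 15.4% were downregulated at a mean log2 value up to 4 and 4.35% over 6. The upregulated shares there were 10.2% and 9.3%. In other classes they varied more with level, at 28.0% and 7.97% with more than 20 exons and 9.92% and 17.4% with 1 exon. The lncRNA shares were not split by level, so the part of level in the gap was not tested. LUCAT1 read 5.34 and 4.86 against 0.42 and 0.84, a 22.1-fold rise. The nuclear lncRNAs MALAT1 and NEAT1 both rose by 1.77, MALAT1 at 8.83 and 8.70 against 6.92 and 7.07. SNHG3, a host gene of small nucleolar RNA, fell by 1.71. Of 41 small nucleolar RNAs 12 were downregulated and 2 upregulated, but most lie in introns of other genes and their reads cannot be told apart from those of the host.

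Genes with few exons were called downregulated more often. Of 12339 coding genes 12232 had a canonical transcript in GENCODE version 44. The median number of exons was 9 over all coding genes, 10 over those upregulated and 6 over those downregulated, and the median genomic span was 29525, 38900 and 17892 bases. Among 233 genes with 1 exon 25.8% were downregulated, among 1290 with 2 or 3 exons 18.7%, among 2706 with 4 to 6 exons 9.57%, and among 1762 with more than 20 exons 3.58%. The upregulated genes were 22 of the 233 with 1 exon and 265 of the 1762 with more than 20. Genes with few exons are on average less expressed, so the shares were split by level. In genes with a mean log2 value up to 4, 32.1% with 1 exon and 6.35% with more than 20 were downregulated, and over 6 the shares were 21.7% of 23 genes and 2.61% of 728. For upregulated genes the order held up to a mean of 4, where the shares were 9.92% and 28.01%, and turned over 6, where they were 17.4% and 7.97%. With DMSO 21.2% of genes with 1 exon and 2.11% with more than 20 were downregulated. The part of RNA integrity or library preparation in this pattern was not tested.

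**Figure D5:**
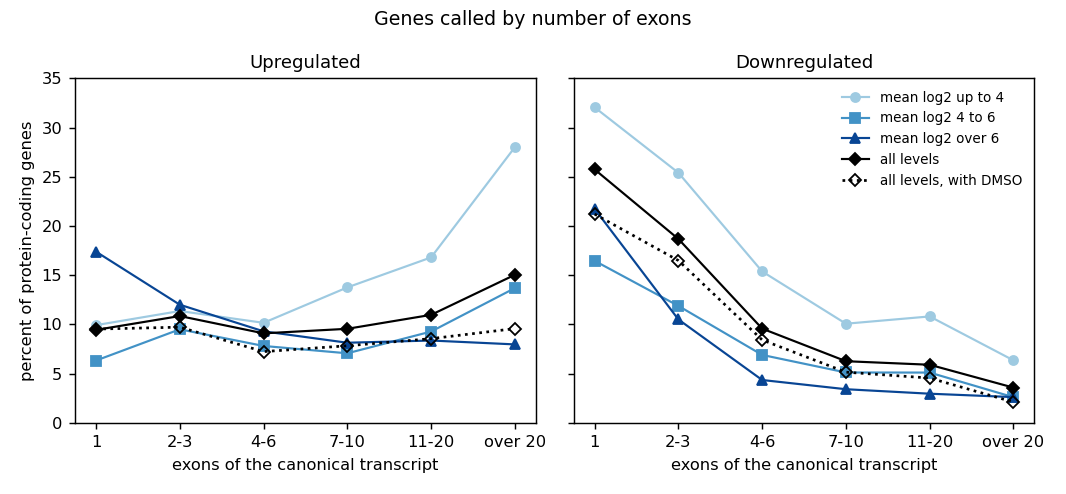
Percent of protein-coding genes called upregulated (left) or downregulated (right) by the number of exons of the canonical transcript (x axis), for all genes and in 3 classes of mean level, with the DMSO experiment as open symbols. The downregulated share falls from 25.8% with 1 exon to 3.58% with more than 20 over all levels.

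The stretches of 250 bases before the start sites of 4 genes above are shown, since they carry motifs named in these pathways. CACGTG is the E-box bound by CLOCK and BMAL1 and by other bHLH factors, and CCAAT, searched on both strands, is bound by NF-Y and is frequent in promoters of cell cycle and chaperone genes. Capitals mark the E-box in CIART and CCNG2 and the CCAAT box in HSPA8 and CDC25A, and ATTGG is CCAAT on the other strand. The sequences are from RefSeq (GRCh38.p14), which may not be the authors' build, and are written 5′ to 3′ along the gene. CIART lies at chr1:150282304-150282553 on the plus strand and CCNG2 at chr4:77156957-77157206 on the plus strand. HSPA8 lies at chr11:123062137-123062386 on the minus strand and CDC25A at chr3:48188418-48188667 on the minus strand. The HSPA8 stretch is inside the gene's listed bounds (123057489 to 123062462), so it precedes a start site other than the listed gene end.
CIART: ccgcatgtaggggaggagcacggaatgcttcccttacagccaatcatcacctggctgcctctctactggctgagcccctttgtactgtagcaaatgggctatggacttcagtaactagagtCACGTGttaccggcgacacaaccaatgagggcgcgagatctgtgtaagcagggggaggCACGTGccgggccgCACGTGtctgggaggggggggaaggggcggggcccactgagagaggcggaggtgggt
CCNG2: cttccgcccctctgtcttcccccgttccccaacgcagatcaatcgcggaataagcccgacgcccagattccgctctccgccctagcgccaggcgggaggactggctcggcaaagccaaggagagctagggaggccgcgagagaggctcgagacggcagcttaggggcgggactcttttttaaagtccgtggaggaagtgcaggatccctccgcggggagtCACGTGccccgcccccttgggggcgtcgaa
HSPA8: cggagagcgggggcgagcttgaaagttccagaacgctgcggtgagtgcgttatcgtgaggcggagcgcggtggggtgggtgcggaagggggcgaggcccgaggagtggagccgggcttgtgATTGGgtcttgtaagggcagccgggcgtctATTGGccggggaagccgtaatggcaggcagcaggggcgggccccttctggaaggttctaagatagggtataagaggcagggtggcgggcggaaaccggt
CDC25A: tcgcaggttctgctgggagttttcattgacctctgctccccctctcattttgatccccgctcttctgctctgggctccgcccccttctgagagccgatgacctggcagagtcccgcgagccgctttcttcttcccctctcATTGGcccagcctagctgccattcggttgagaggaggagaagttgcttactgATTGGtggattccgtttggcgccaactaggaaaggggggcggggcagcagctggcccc

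CIART holds 3 E-box matches and CCNG2 holds 1, and HSPA8 and CDC25A hold 2 CCAAT matches each. Over all coding genes with a promoter in the table (10197 of 12339), 8.89% held an E-box and 35.3% a CCAAT box in this window. Among 838 downregulated coding genes the shares were 10.0% and 39.4%. The table holds promoters for 79.985% of the upregulated coding genes, under the 80% set as the minimum, so the check of upregulated genes was void. A match is a description of these letters and does not show that a factor was bound.

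The experiment with DMSO gave the same contrast in separate libraries. Its table was normalized apart, so fold changes are set side by side. With DMSO 9.03% of 14024 genes were upregulated and 8.11% downregulated. Of 13475 genes in both tables, 1499 were upregulated without vehicle and 1207 with DMSO, and 1021 were in both sets, which is 68.1% of the first and 84.6% of the second. For downregulated genes 722 were in both, 59.1% of 1222 without vehicle and 70.4% of 1025 with DMSO. Opposite calls were made for 0 genes upregulated and 1 gene downregulated without vehicle. The 1499 genes had a median log2 fold change of 1.497 without vehicle and 1.26 with DMSO, and the 1222 genes -1.37 and -1.11. Both sets were chosen by their values without vehicle, which favours larger sizes there. These medians therefore cannot show whether the response was weaker with DMSO. Genes of the lists above that were called without vehicle and not with DMSO include HSP90AA1 (-1.69 and -0.65), HSPE1 (-1.90 and -0.78), COX3 (-1.87 and -0.71) and RBPJ (1.45 and 0.82). Whether these fold changes differ between the experiments was not tested.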

How the data were processed

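The authors made mRNA libraries of the LN229 cultures, sequenced them, trimmed the reads, aligned them to GRCh38 with HISAT2 in Galaxy and used edgeR for differences; the counter is not given in the sources used here. The authors deposited log2 normalized CPM, which include an offset of about 2 reads that pulls differences of weakly read genes towards 0. These values were used as deposited. Whole reads were recovered from them (100% within 0.01 read). Symbols matched 99.4% of the Entrez identifiers.

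Fold changes, standard errors and two-sided p-values came from limma 3.58.1 in R 4.3.3, with a mean per group and an empirical Bayes step with a variance trend, in place of edgeR since the values are not counts. The DMSO contrast was fitted over the 12 libraries of its experiment. In simulated data with 13559 genes, all of 100 altered at a log2 size of 1.5 were called. The altered genes were drawn only from well-read genes and all genes were given the same spread. How often changes in weakly read genes are called was therefore not measured. No set test was run.

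The 55 gene lists (3 set aside), motifs and comparisons were chosen with earlier results of these data known. Named genes are, outside the set-aside lists, the 15 largest rises and falls whose libraries did not overlap and whose mean level was 3 or more in log2, the 10 most abundant called genes, and the 2 largest rises and falls of each list, with other members whose role is stated. Some genes are not reported here. Transcripts came from GENCODE 44. Alternatives were other fold and p thresholds, a 1 CPM filter, a further offset of 1 CPM, median centring, quantile normalization, no variance trend, a replicate block, voom on recovered reads, and each library left out in turn. Voom with the deposited scaling was added after seeing the data. Floors of 3 reads cover counting error only. Figures were drawn with matplotlib 3.10.9.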

Additional observations from a re-analysis of the deposited data

Results flagged for a closer look

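SNORD14D, a small nucleolar RNA in an intron of HSPA8, went in opposite directions in the experiments: every ischemic library was below every regular library without vehicle (log2 fold change -1.327) and above with DMSO (3.119). It had 4 and 7 reads in the ischemic and 23 and 14 in the regular libraries. HSPA8 itself fell in both, and reads of an intronic RNA cannot be told apart from those of its host. The difference between the experiments was not tested.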

How the results depend on the processing

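At a fold change of at least 1.5 the counts without vehicle were 2886 up and 2734 down, with DMSO 2537 and 2506, and in both experiments 2012 and 1799. At 4-fold or more the counts without vehicle were 434 up and 195 down. Leaving out each library in turn gave 1486 to 1567 upregulated and 1197 to 1337 downregulated genes. Scaling the reads to library totals turned the split from 55.3% to 40.9% of called genes upregulated. Among the other settings that kept the 2-fold threshold, none moved that share by over 10 percentage points. The 4-fold threshold shifted it further towards upregulated genes. Among the named genes, quantile normalization reversed 4 mitochondrially encoded ones that were not called, to -0.48 for COX2, -0.17 for CYTB, -0.11 for ND4 and -0.0688 for ND4L, and no called gene was reversed in any setting run. The median changed sign under at least 1 setting for 12 of 55 lists, among them cytosolic ribosomal proteins (-0.07 to 0.21), NOTCH (-0.24 to 0.01), apoptosis regulators (-0.12 to 0.16), lysosome (-0.01 to 0.18) and actin and contractile genes (-0.07 to 0.14). Among the genes taken by the naming rule and the other named members, 17 lost their call with the further offset of 1 CPM, 9 with reads scaled to library totals, 7 with quantile normalization and 10 without ischemic replicate 2.

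The replicate number may be only a name: with the replicate block the counts were 1532 up and 1234 down without vehicle, 1267 and 1140 with DMSO, and 1022 and 722 in both. Deviations of same-numbered libraries correlated at 0.15 over 13559 genes, and 2 pairs are too few to treat the numbers as pairs.

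With 2 libraries a group, the spread of each gene leans on the trend over all genes. Genes with few reads are limited by depth: 55 called genes had a group with 3 reads or fewer in both libraries.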

Other observations

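Families defined by the start of the gene symbol were looked at after the values of all genes were seen, and no test was run on them. Of 13 listed KLF genes, zinc finger transcription factors, 8 were upregulated and 1 downregulated, with a median log2 fold change of 1.17. KLF7 read 8.52 and 8.59 in the ischemic libraries against 4.77 and 4.89, a 13.2-fold rise, and KLF5 and KLF10 rose by 2.10 and 2.11 on the log2 scale. KLF15 was the downregulated member. With DMSO 6 of the 13 were upregulated and 0 downregulated.

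Of 35 listed genes of the HOX clusters, which set position along the body axis and include 30 coding genes, 14 were downregulated and 2 upregulated, with a median of -0.56. HOXC13 fell 4.06-fold. The 2 upregulated genes were HOXB9, described above, and HOXA13, which rose 7.57-fold. With DMSO 11 of the 35 were downregulated and 2 upregulated. Genes of a cluster lie side by side and some transcripts overlap, so they are not independent.

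Of 49 listed protocadherin genes, adhesion molecules of the nervous system, 12 were downregulated and 1 upregulated, and the clustered members share parts of their transcripts. Of 10 listed CHST genes, carbohydrate sulfotransferases that modify proteoglycans, 5 were downregulated and 0 upregulated, among them CHST2, which fell 3.89-fold. With DMSO 2 of the 9 listed were downregulated. Of 12 listed ABCA genes and pseudogenes, mostly lipid transporters, 6 were upregulated without vehicle and 2 of 11 with DMSO.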
